A study of Saccharomyces cerevisiae with 16 samples.

Results

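Terminators carrying the H motif at both flanking insertion sites were compared with terminators carrying a random sequence, N, at those sites, in yeast cells expressing an mCherry reporter. Constructs were grouped by their inserts: 2 libraries with H (1 of modHTH and 1 of modHNH) stood against 4 libraries without H (2 of modNTN and 2 of modNNN), 6 of the 16 libraries in the series. The second libraries of modHTH and modHNH held 69 and 267 reads and were left out for their number of reads.

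The study sequenced 5′-phosphorylated RNA ends (HT-5PSeq) in Saccharomyces cerevisiae whose fluorescent reporter differed only in its terminator. All 6 libraries came from BY4741, a laboratory strain of mating type a that cannot make uracil, grown in synthetic medium without uracil for 4 h at 30 °C to an OD600 of 0.7. Each carried a low-copy plasmid with the RPS3 promoter, mCherry, a modified RPS3 terminator and a URA3 selection marker. RPS3 is a ribosomal protein gene, so all constructs shared such a gene's promoter and the frame of its terminator. modHTH has H at the outer sites and T in the middle, and modNTN has N in place of H. modHNH has H at the outer sites and N in the middle, and modNNN has N at all 3 sites. Of the other modified terminators used for comparison, modNAA (2 libraries) carries N, A and A and modNGG (1 usable library) carries N, G and G, and neither has H.

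The inserts, each 9 nt long, are what distinguishes the constructs, and the motifs as the study's design text spells them are printed here with the whole motif in capitals, 5′ to 3′.
H: TTTCATTTC
T: TGTACAATA
The H motif holds 6 T, 2 C, 1 A and no G. The T motif opens with the 4 bases TGTA, with which the sites of Puf family RNA-binding proteins begin. The sequence of N and the distance of each insertion site from the stop codon were not used here, so no end could be placed inside or outside an insert.

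In yeast, elements rich in A and U before the cleavage site recruit the cleavage and polyadenylation machinery, which cuts the transcript and adds the poly(A) tail. The same region stays in the mRNA as its 3′ untranslated region (3′UTR), where RNA-binding proteins can change translation and decay. Most decay then runs through shortening of the tail, removal of the cap and digestion from the 5′ end by Xrn1, which follows the last ribosome. HT-5PSeq captures the molecules left with a 5′ phosphate along this path, and here reverse transcription started from oligo(dT) alone, so a read count reflects polyadenylated RNA with a 5′ phosphate and not total mRNA.

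The libraries with H held 1177730 reads (modHTH) and 1314920 reads (modHNH), and those without H held 1441230 to 1709697. The labels do not say that libraries of a construct came from separate cultures, so a p-value reflects the spread among libraries, which may be technical. Each construct with H has 1 usable library, so a difference between modHTH and modHNH and a difference between their libraries cannot be told apart. Of the strain's deleted markers, MET17 and the chromosomal copy of URA3 were at 0 reads in all 6 libraries, LEU2 had 0 to 2, and HIS3, of which part of the gene remains in the strain, had 198 to 395. The 7 genes of mating type a summed to 3255 normalised CPM (read counts scaled to a common library size, by TMM over the host genes) in modHTH and 3379 CPM in modHNH, against 2927 to 3552 CPM without H. The 5 genes of mating type alpha summed to 75.3 and 89.5 CPM, against 45.7 to 70.95 CPM without H, and none of the 3 that were tested passed (edgeR), with 2 of the 5 at 0 reads in modHTH and 1 in modHNH. The 12 genes of meiosis and sporulation summed to 65.6 and 58.4 CPM, against 44.8 to 61.7 CPM, and none of the 4 tested passed.

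The reporter was lower with H, and most of that difference lay in the pair with T in the middle. mCherry read 1964 CPM in modHTH, against 7100 and 8416 CPM in modNTN (7758 ± 931, SD, n = 2). It read 5257 CPM in modHNH, against 6603 and 6008 CPM in modNNN (6306 ± 421, SD, n = 2). Both libraries with H lay below all 4 without it, modHTH by far and modHNH by little. In these bulk libraries fewer cells with the reporter, less reporter RNA per cell and a smaller part of it with a 5′ phosphate cannot be told apart. Across the 6 libraries, with flank and middle insert as additive terms, the reporter had a log2 difference of -1.04 (SE 0.27) and so fell 2.06-fold (interval -1.57 to -0.52; edgeR quasi-likelihood test, Benjamini-Hochberg adjusted p = 0.0319 over 5159 rows). That call was lost without the modHTH library (log2 difference -0.27, edgeR adjusted p = 0.543), while without the modHNH library the difference was -1.98 (edgeR adjusted p = 0.00275). It was also lost without modNTN library 1 (-1.01, edgeR adjusted p = 0.107), without modNTN library 2 (-0.91, edgeR adjusted p = 0.0727), with DESeq2 (-1.04, adjusted p = 0.140), and with the modNAA and modNGG libraries added to those without H (-0.72, edgeR adjusted p = 0.313).

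Tested pair by pair in a fit of all usable reporter libraries, the reporter was 3.98-fold lower with H where the middle insert was T (log2 difference -1.99, SE 0.23, edgeR adjusted p = 0.00300). Where the middle insert was N the difference was -0.26 (SE 0.21, edgeR adjusted p = 0.558), with an interval from -0.68 to 0.15 that holds both no change and a moderate reduction. The difference between these 2 effects was -1.73 on the log2 scale (SE 0.30, unadjusted p = 4.8e-05 in the edgeR quasi-likelihood test), but did not pass after adjustment over all rows (adjusted p = 0.253). DESeq2 on the same design gave -1.72 with an adjusted p of 0.000113. This test of the difference was added after the pairs had been seen.

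The selection marker on the same plasmid, URA3, which encodes an enzyme of pyrimidine synthesis, was not called different between the groups. It read 5013 CPM in modHTH, against 5096 and 5282 CPM in modNTN, and 5743 CPM in modHNH, against 5123 and 4547 CPM in modNNN. The groups overlapped, and the difference was 0.09 on the log2 scale (SE 0.14, edgeR adjusted p = 0.708). Per read of URA3, the reporter gave 0.392 reads in modHTH, against 1.39 and 1.59 in modNTN, and 0.915 in modHNH, against 1.29 and 1.32 in modNNN. The mean log2 ratio was -0.74 with H and 0.48 ± 0.14 without (SD, n = 4), a difference of -1.22 (p = 0.0667 by a two-sided exact permutation test, which cannot go lower with the 15 splits of 2 against 4). The ratio was also low in modNAA, which carries no H (0.565 and 0.470), and was 1.46 in modNGG. The chromosomal gene whose promoter and terminator the reporter borrows, RPS3 (chromosome XIV, 302680 to 303402 in R64), read 3240 CPM in modHTH and 3294 CPM in modHNH, against 3656 and 3451 CPM in modNTN and 4021 and 3618 CPM in modNNN. Its levels were below all 4 without H, but the difference of -0.19 on the log2 scale did not pass (SE 0.13, edgeR adjusted p = 0.367).

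**Figure D1:**
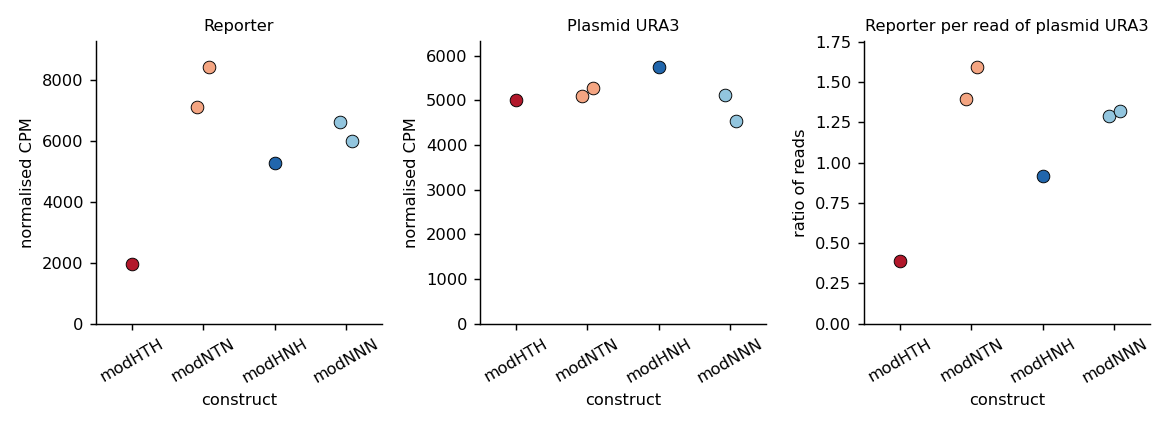
Each point is 1 library: normalised CPM of the mCherry reporter (left) and of the plasmid's URA3 (middle), and reporter reads per URA3 read (right), for modHTH, modNTN, modHNH and modNNN. The modHTH point at 1964 CPM stands far below both modNTN points, modHNH stands closer to modNNN, and the URA3 points of all constructs lie between 4547 and 5743 CPM.

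The 3′ ends of the reporter mRNA lay at partly different positions with H. Only small sites set both libraries with H apart from all 4 without, while leading ends also shifted within the pairs. Position tables give the number of 3′ ends at each distance after the stop codon, and 2194 ends in modHTH and 6693 in modHNH fell within 200 nt, against 8101 to 14081 without H. These ends were 99.0% of the reporter reads in modHTH and 99.1% in modHNH, against 97.2% and 97.3% in modNTN and 84.9% and 90.8% in modNNN. Shares and mean distances refer to ends in this window only, and the part of the unlike fractions in them was not tested. In each library the ends formed a group between 45 and 57 nt and a group at 73 to 76 nt, and the balance between them differed mostly with the middle insert. Mean distances were 69.0 nt in modHTH, against 73.0 and 72.9 nt in modNTN, and 62.9 nt in modHNH, against 69.2 and 67.3 nt in modNNN. Each construct with H thus had a shorter mean than both libraries of its pair, while over the 4 without H the ranges overlapped. The means differed by -4.65 nt (65.9 with H and 70.6 ± 2.82 without, SD, n = 4; two-sided exact permutation test, p = 0.2).

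The leading ends differed between the pairs. At 55 nt, modHNH had 19.1% of its ends (Wilson 95% interval 18.2 to 20.1, counting error only), against 7.47% and 10.6% in modNNN. With T in the middle the same position was little used, at 0.638% in modHTH (0.380 to 1.07), against 0.759% and 0.781% in modNTN. At 75 nt, the leading position of modHTH, modNTN and modNNN, modHTH had 29.9% (28.0 to 31.8), against 36.9% and 38.1% in modNTN. In modHNH the share at 75 nt was 14.7% (13.9 to 15.6), against 19.3% and 19.4% in modNNN. At 75 nt the share was thus lower with H in both pairs, but the constructs with T in the middle sat above those with N whatever the flank. The other 3 leading positions were 57, 73 and 76 nt. Over the 5 sites the exact permutation test on the 6 libraries gave adjusted p from 0.667 to 0.867. With 15 splits its p cannot go below 0.0667, so no site could pass. The splits also ignore the middle insert, so this test cannot decide whether H shifted these ends.

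Away from these leading positions, several smaller sites separated the libraries with H from all 4 without, and they were chosen for their values, so they are described with no test. Of the 23 positions that held at least 1% of the ends in any of the 6 libraries, 5 (21.7%) were above the range of the libraries without H in both libraries with H, and 6 (26.1%) were below it. At 64 nt, 3.19% of ends in modHTH (2.53 to 4.01) and 8.02% in modHNH (7.40 to 8.70) were found, against 0.228% and 0.206% in modNTN and 0.160% and 0.431% in modNNN. At 62 nt the shares were 1.19% in modHTH and 4.33% in modHNH, against 0.135% to 0.383% without H. At 32 nt they were 1.32% and 0.732%, against 0.0284% to 0.0493% without H. These 3 positions were nearly unused without H.

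The opposite was found at 61, 68 and 86 nt. At 86 nt, 0.137% of ends were found in modHTH and 0.105% in modHNH, against 3.58% and 2.76% in modNTN and 3.65% and 1.85% in modNNN. At 61 nt the shares were 0.0456% in modHTH and 0.0896% in modHNH, against 1.13% and 1.09% in modNTN and 2.63% and 1.56% in modNNN. At 68 nt they were 0.319% and 0.837%, against 1.49% and 1.28% in modNTN and 8.02% and 3.94% in modNNN. Ends at 61 and 86 nt were almost absent with H, whichever middle insert was present, and ends at 68 nt were fewer. The zone from 78 to 100 nt held 3.87% of ends in modHTH and 2.12% in modHNH, against 12.7% and 12.1% in modNTN and 10.5% and 8.49% in modNNN. The zone from 60 to 66 nt went the other way. It held 4.97% in modHTH and 14.2% in modHNH, against 2.28% and 2.19% in modNTN and 4.51% and 3.83% in modNNN. From 40 to 59 nt the share was also higher with H within each pair. It was 23.8% in modHTH, against 15.4% and 15.9% in modNTN, and 49.9% in modHNH, against 32.6% and 41.5% in modNNN. From 72 to 77 nt it was lower within each pair. There modHTH had 61.2%, against 64.6% and 65.4% in modNTN, and modHNH 29.7%, against 37.4% and 36.1% in modNNN. In these last zones the groups overlapped over the 6 libraries.

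**Figure D2:**
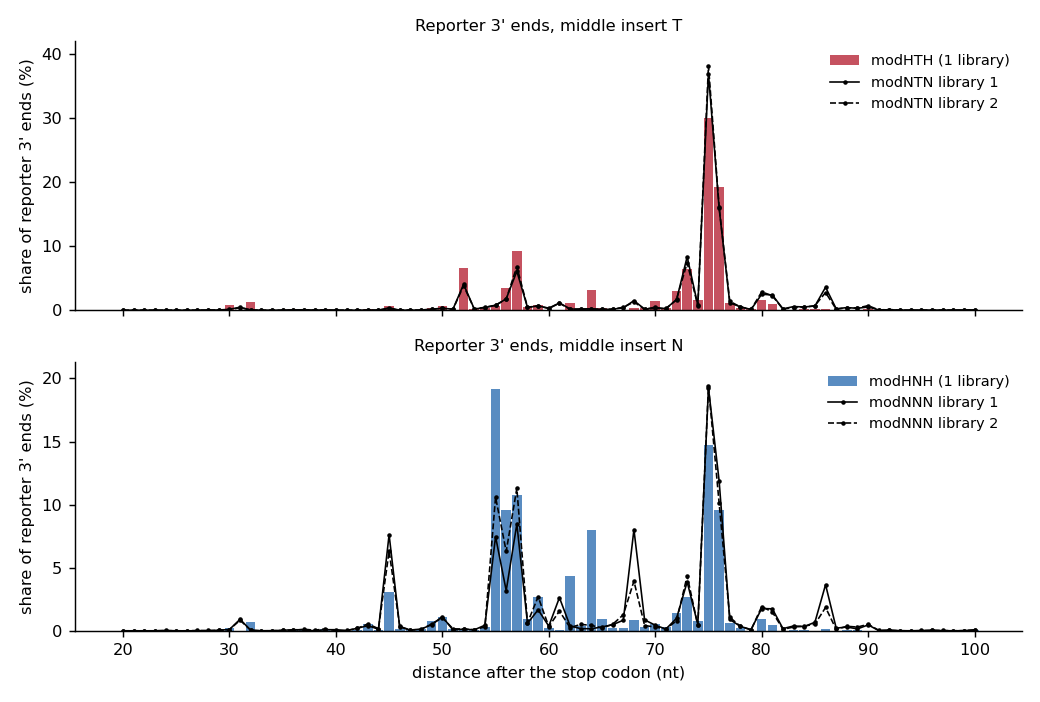
Share of the reporter's 3′ ends (percent, vertical axis) at each distance after the stop codon (nt, horizontal axis), with T in the middle (top: bars modHTH, lines both modNTN libraries) and with N in the middle (bottom: bars modHNH, lines both modNNN libraries). The bars at 62 and 64 nt stand above the lines in both panels, the lines at 61, 68 and 86 nt stand above the bars, and the bar at 55 nt rises to 19.1% in the lower panel.

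The other modified terminators without H placed some of these sites elsewhere. At 64 nt modNAA had 0.0384% and 0.0408% of its ends and modNGG 0.207%, within or below the range of modNTN and modNNN. At 62 nt modNAA had 1.67% and 1.55% and modNGG 0.774%, so modHTH did not stand above modNAA there. At 86 nt modNAA had 0.960% and 1.06% and modNGG 1.03%, still above both libraries with H. Of the 11 positions that split the 6 libraries, 7 (32, 61, 64, 70, 80, 81 and 86 nt) kept modHTH and modHNH outside the range of all 7 libraries without H.

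Transcripts whose own terminators were the same in all libraries also showed non-overlapping positions, and these give the background of the measure. Above the range without H were 5 of 13 positions of plasmid URA3 (38.5%), 10 of 17 of RPS3 (58.8%), 5 of 17 of PGK1 (29.4%), which encodes a glycolytic kinase, and 4 of 16 of TSA1 (25.0%), which encodes a peroxiredoxin. Below it were 2 positions of URA3 (15.4%), 2 of RPS3 (11.8%), 3 of PGK1 (17.6%) and 2 of TSA1 (12.5%). The reporter's 21.7% above the range was below the share in all 4 controls, and its 26.1% below the range was higher than in all 4. Positions entered with at least 1% of ends in any of the 6 libraries, and gaps were taken only where the groups did not overlap. Such a choice favours large gaps, in the controls too, so the gaps are described with no test. The largest gaps were in the reporter. Between the nearest libraries of the groups its shares differed 14.9-fold at 32 nt (exact 95% interval for counting error 5.45 to 56.7), 13.5-fold at 86 nt (4.53 to 66.2), 12.2-fold at 61 nt (5.48 to 33.8) and 7.40-fold at 64 nt (4.87 to 11.4). The ratio at 86 nt rests on 3 ends in modHTH, and the one at 61 nt on 6 ends in modHNH. The gaps at the other 7 positions were 1.02-fold to 3.10-fold, and the median over the 11 was 1.73-fold, beside medians of 1.23-fold to 1.28-fold in the controls. The largest gap in a control was 1.47-fold in RPS3, 1.57-fold in TSA1, 1.60-fold in PGK1 and 1.71-fold in URA3, and 5 of the reporter's gaps were smaller than the one in URA3.

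The leading 3′ end of every control was less used in the libraries with H. In RPS3 the end at 59 nt held 16.5% in modHTH and 19.5% in modHNH, against 29.0% and 26.6% in modNTN and 39.9% and 24.4% in modNNN. In PGK1 the end at 158 nt held 32.1% and 31.9%, against 39.6% to 46.3% without H. In TSA1 the end at 106 nt held 30.0% and 29.3%, against 34.1% to 37.2%, and in URA3 the end at 19 nt held 30.9% and 33.1%, against 38.2% to 46.9%. modNGG, which has no H, had 20.7% at the RPS3 end, 32.8% at the TSA1 end and 34.0% at the URA3 end, below all 4 libraries of modNTN and modNNN in each, and 41.9% at the PGK1 end, within their range. The position tables held 65.0% of the RPS3 reads in modHTH and 66.8% in modHNH, against 78.8% to 90.2% in modNTN and modNNN and 69.4% in modNGG. For PGK1 they held 67.2% in modHTH and 48.3% in modHNH, against 76.1% to 86.5% in modNTN and modNNN and 71.9% in modNGG. The other controls differed little: URA3 had 79.2% and 80.5%, against 79.5% to 82.3%, and TSA1 had 99.7% to 100% in all 6 libraries. The part of these fractions in the shares was not tested. The mean distance in URA3 was 4.28 nt longer with H (exact permutation p = 0.0667), where the end at 161 nt held 7.14% in modHTH and 4.07% in modHNH, against 1.55% to 2.89%, while in RPS3, PGK1 and TSA1 the means differed by -0.57, -0.65 and -0.17 nt (exact permutation p from 0.2 to 0.467).

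**Figure D3:**
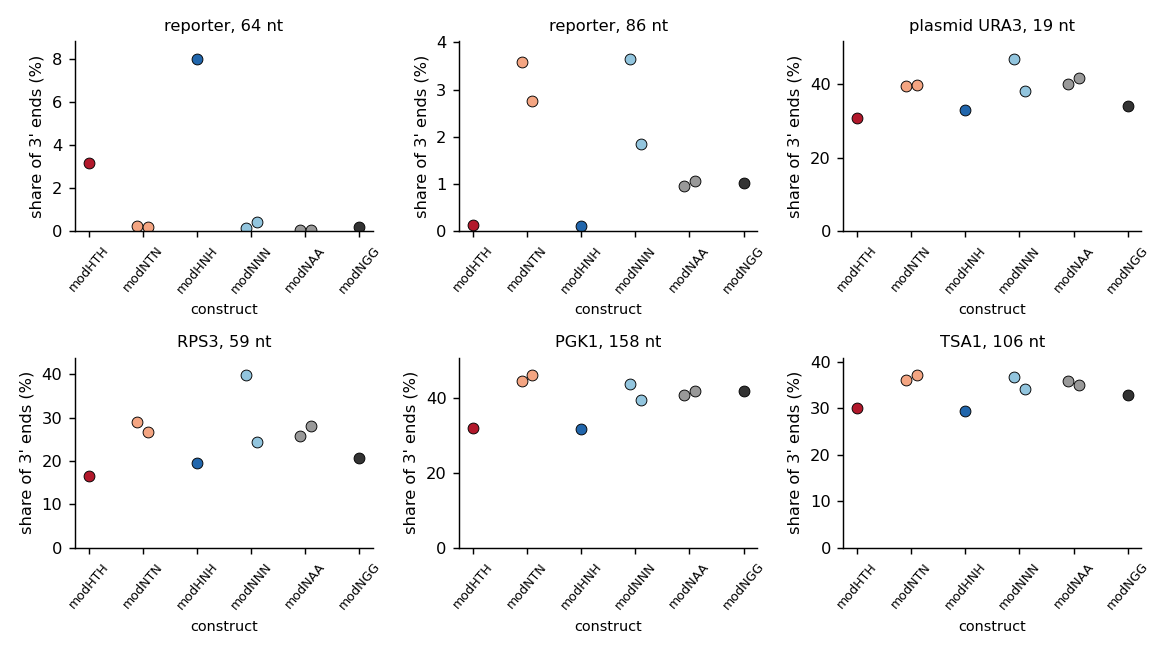
Share of 3′ ends (percent) at 2 positions of the reporter and at the leading position of 4 control transcripts' ends, 1 point per library, for modHTH, modNTN, modHNH, modNNN, modNAA and modNGG. At 64 nt of the reporter modHTH (3.19%) and modHNH (8.02%) stand alone, at 86 nt they are lowest, and in the controls they lie below modNTN and modNNN by small factors.

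The 5′P ends along the reporter differed little. The share of ends in the reading frame, of 3, most used over the chromosomal controls PGK1, RPS3 and TSA1, a measure of how far decay follows the ribosome, was 36.1% in modHTH and 36.1% in modHNH, against 35.8% and 35.4% in modNTN and 35.5% and 34.9% in modNNN. Both libraries with H lay above all 4 without, by a small margin, and the difference of 0.695 percentage points had p = 0.133 in the two-sided exact permutation test. Without H, modNGG had 36.2% and modNAA 38.0% and 35.7%, and with these libraries included the difference was 0.183 points (exact permutation p = 0.806). The frame share was likewise higher with H in PGK1 (40.6%, against 37.9%), TSA1 (40.9%, against 39.2%) and RPS3 (41.3%, against 40.4%), with exact permutation p from 0.133 to 0.2. Past the stop codon lay 0.735% of ends in modHTH (12 of 1632 ends, Wilson 0.421 to 1.28) and 0.435% in modHNH (19 of 4369, 0.279 to 0.678), against 0.438% and 0.370% in modNTN and 1.03% and 0.977% in modNNN. modHNH was below modNNN and modHTH above modNTN, so the groups overlapped (difference -0.118 points, exact permutation p = 0.533). In PGK1 the share past the stop codon was 1.20% with H, against 2.58% without (difference -1.38 points, exact permutation p = 0.0667). There both libraries with H lay below all 4 without. In RPS3 and TSA1 the differences were 0.066 and 0.111 points (exact permutation p = 0.4 in both). In the 6 libraries, 5 to 30 positions shared the highest count in the reporter's 5′P table and held 10.1% to 25.8% of its ends, and no source used here says whether counts per position were capped.

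Among the host genes, 357 of 5152 tested differed between libraries with and without H in the edgeR quasi-likelihood test at an adjusted p under 0.05 (6.93%). Higher with H were 201 (3.90%), with a median log2 difference of 0.65, and 156 fell (3.03%), by a median of 0.73 on the log2 scale. When each library was scaled by its total instead of by TMM, 140 were higher and 210 lower, so the balance of directions depends on the scaling. Without regard to a test, both libraries with H lay above all 4 without in 1123 genes (21.8%) and below in 1011 (19.6%).

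The number of genes depended on single libraries. It was 0 without modHTH, 1 without modHNH, 0 without modNTN library 1, 21 without modNTN library 2, 594 without modNNN library 1 and 1264 without modNNN library 2. With the modNAA and modNGG libraries counted among those without H it was 0 (edgeR; 1074 at an unadjusted p under 0.05). modNGG alone lay beyond all 4 libraries of modNTN and modNNN, on the side of the libraries with H, in 171 of the 201 higher genes and in 130 of the 156 lower ones, although it carries no H motif. Its median log2 distance from the mean of the 4 was 0.46 in the higher genes, where modHTH had 0.72 and modHNH 0.67, and -0.45 in the lower genes, where modHTH had -0.75 and modHNH -0.65. The host gene differences described next therefore separate these libraries from modNTN and modNNN but do not separate terminators with H from all terminators without it.

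DHH1 and ZRT1 had the largest increases with H among the host genes. DHH1 (chromosome IV, 170410 to 171930), a helicase that activates decapping and represses translation, had 68.3 CPM in modHTH and 74.7 CPM in modHNH, against 22.1 and 22.7 CPM in modNTN and 15.9 and 39.0 CPM in modNNN. It had the largest log2 difference among the higher genes, 1.50 (SE 0.24, edgeR adjusted p = 0.00765), a 2.84-fold rise, with modNGG between the groups at 47.0 CPM. ZRT1 (chromosome VII, 20978 to 22108), the high-affinity zinc transporter of the plasma membrane, had 477 CPM in modHTH and 234 CPM in modHNH, against 130 and 166 CPM in modNTN and 115 and 130 CPM in modNNN (log2 difference 1.32, SE 0.17, edgeR adjusted p = 0.00166). ZAP1, the transcription factor that switches on zinc uptake genes when zinc is low, had 87.8 and 64.6 CPM, against 24.9 to 45.0 CPM without H (log2 difference 1.08, SE 0.21, edgeR adjusted p = 0.0167). For ZRT1 modNGG read 323 CPM, between modHTH and modHNH, so this gene did not order the libraries by the H motif.

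DED1, a helicase of translation initiation, had 558 CPM in modHTH and 368 CPM in modHNH, against 206 to 238 CPM in modNTN and modNNN (log2 difference 1.02, SE 0.14, edgeR adjusted p = 0.00166). ASN1, an asparagine synthetase, had 854 and 661 CPM, against 238 to 388 CPM without H (1.22, SE 0.17, edgeR adjusted p = 0.00166). HAC1, the transcription factor of the unfolded protein response, had 1200 and 1059 CPM, against 467 to 754 CPM (0.995, SE 0.17, edgeR adjusted p = 0.00765). In all 3 both libraries with H were above the 4 without, which the choice of the genes of largest change required. The other genes among the 12 largest increases were BMH2, a 14-3-3 protein (1.28), RDS1, a zinc cluster transcription factor (1.28), ERV15, a protein of ER transport vesicles (1.15), RTS1, a regulatory subunit of protein phosphatase 2A (1.11), RRG8, needed for respiratory growth (1.03), and UBA1, the ubiquitin-activating enzyme (0.98). Their edgeR adjusted p lay between 0.00765 and 0.0375, and for RTS1 the modNGG and second modNNN libraries had nearly equal levels, 178 and 179 CPM.

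Several of the genes that fell most with H had few reads. FRE2, a ferric reductase, had 0.886 CPM in modHTH and 3.11 CPM in modHNH, against 6.98 to 11.8 CPM in modNTN and modNNN (log2 difference -2.05, SE 0.55, edgeR adjusted p = 0.0362). Only 1 and 4 reads stood behind the levels with H, against 54 in the 4 libraries without, a ratio of normalised counts of 0.244 with an exact interval for counting error of 0.0763 to 0.606. SMD3 (chromosome XII, 434158 to 434463), a core protein of the splicing snRNPs, had 8.86 and 8.56 CPM, against 22.1 to 33.8 CPM (-1.76, SE 0.32, edgeR adjusted p = 0.0110). SMD3 kept the libraries well apart, and modNGG at 25.2 CPM lay with the libraries without H.

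GLK1, a glucokinase, had 133 CPM in modHTH and 88.7 CPM in modHNH, against 184 to 321 CPM (-1.19, SE 0.22, edgeR adjusted p = 0.0127). YPT52, a Rab GTPase of endosomes, had 119 and 117 CPM, against 163 to 553 CPM, and MAD2, of the spindle checkpoint, had 58.5 and 59.9 CPM, against 75.9 to 244 CPM. In both the libraries without H ranged more than 3-fold, with modNNN library 1 highest, and the log2 differences were -1.35 and -1.22 (edgeR adjusted p = 0.0306 and 0.0418). UAF30, a subunit of the rDNA upstream activation factor, fell by 1.34 on the log2 scale, and ASA1, a subunit of a chromatin complex, by 1.31. The largest decreases further held the poorly characterised YGR016W, YGR153W, MPA43, YIR016W and YBR141W-A, by 1.56, 1.50, 1.40, 1.28 and 1.63 (edgeR adjusted p from 0.0267 to 0.0486). YBR141W-A had 2 reads in modHTH and 6 in modHNH, against 63 in the 4 libraries without H (ratio of normalised counts 0.335, exact interval 0.139 to 0.702). Among the genes of largest decrease, modNGG was also below all 4 libraries of modNTN and modNNN in GLK1 (180 CPM), YPT52 (146 CPM) and MAD2 (58.9 CPM). The same held for FRE2, ASA1, YGR016W, MPA43 and YIR016W. In SMD3, UAF30, YGR153W and YBR141W-A modNGG lay within the range of those 4 libraries.

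**Figure D4:**
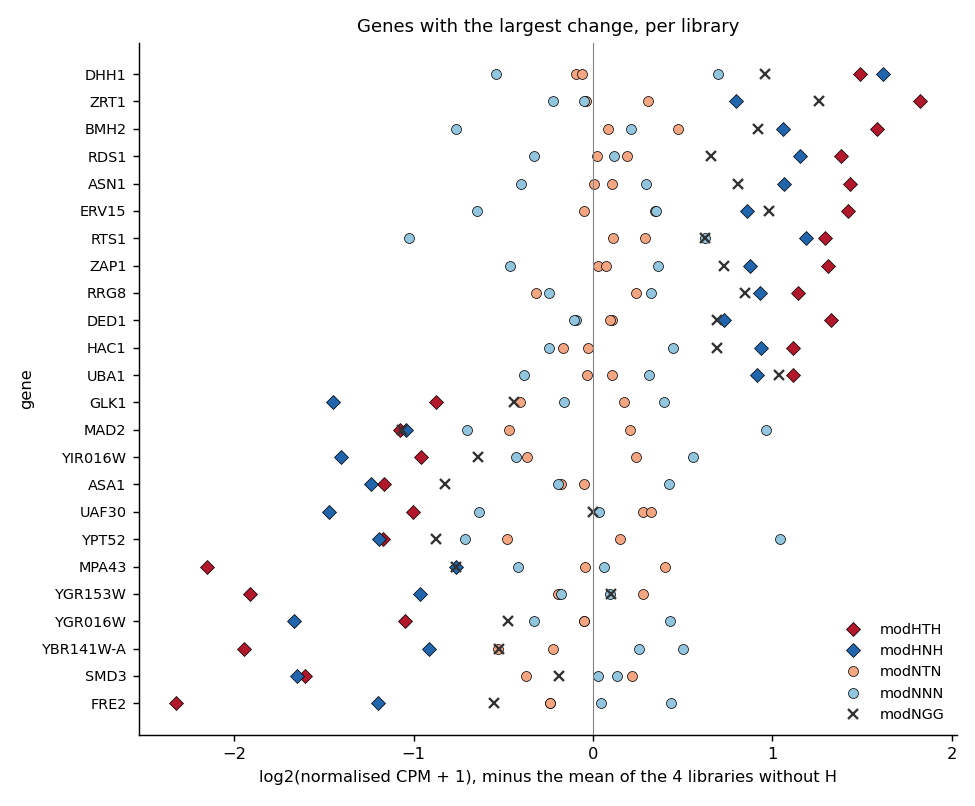
For the 12 genes per direction with the largest log2 difference, each library's log2(normalised CPM + 1) minus the mean of the 4 libraries without H (horizontal axis), for modHTH, modHNH, modNTN, modNNN and modNGG. The genes were chosen so that the diamonds of modHTH and modHNH lie outside the circles. In most of the higher genes the crosses of modNGG lie between the diamonds and the circles or among the diamonds. In the lower genes they lie among or near the circles in several and beyond them in others.

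The genes that differed also differed in length. The median coding length (start to stop codon, introns included) was 2289 nt in the 201 higher genes and 894 nt in the 156 lower ones, beside 1263 nt in all genes with a length. The median log2 difference was -0.21 in genes under 500 nt, -0.14 from 500 to 1000 nt, -0.02 from 1000 to 2000 nt, 0.20 from 2000 to 4000 nt and 0.36 above 4000 nt. Above 4000 nt 35 of 181 genes were higher and 0 lower, and under 500 nt 8 of 536 were higher and 33 lower. modNGG gave medians of -0.12, -0.05, -0.0012, 0.15 and 0.25 over the same lengths, so the order by length was not limited to the libraries with H. With a trend on coding length removed, 133 genes passed, 84 higher and 49 lower. Of the 75 genes named for their values or lists, 47 had passed with no trend removed, among them YBR141W-A, which has no length and dropped out here. Of those 47, 17 no longer passed in the edgeR test with the trend removed, among them PUF3, NAB3, BMS1, NMD2, STE6, HHT2, RPL18B, MRPS5, MRPS16 and MRPL37. The other 7 are of the 23 with the largest differences: RTS1, YGR016W, YGR153W, YIR016W, MAD2, YPT52 and MPA43.

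Among genes of mRNA decay, those that passed were all higher with H. Of the 38 tested genes of the decay machinery, 5 rose and 0 fell (13.2%, beside 6.93% of all genes). The median log2 difference was 0.19, beside -0.03 over all genes tested. Besides DHH1 these were EDC1, an activator of decapping (0.75), LSM2, of the ring that binds shortened tails (0.69), NMD2, a factor of nonsense-mediated decay (0.63), and NOT5, of the deadenylase complex (0.49), with edgeR adjusted p from 0.0187 to 0.0497. EDC1 had 163 CPM in modHTH and 160 CPM in modHNH, against 104 and 105 CPM in modNTN and 69.9 and 103 CPM in modNNN, and NMD2 had 197 and 195 CPM, against 110 to 139 CPM. The groups did not overlap in either gene, and modNGG read 161 CPM for EDC1, level with the libraries with H. The list's median over the 38 genes was 0.26 in modHTH and 0.19 in modHNH relative to the 4 libraries without H, and 0.13 in modNGG.

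Of the 28 tested factors that cut and polyadenylate pre-mRNA, 2 rose and 0 fell (7.14%, near the 6.93% of all genes; median log2 difference 0.10). RAT1, the nuclear exonuclease that helps end transcription, had 369 CPM in modHTH and 388 CPM in modHNH, against 170 to 257 CPM without H (0.75, SE 0.15, edgeR adjusted p = 0.0180), and modNGG read 355 CPM. NAB3, an RNA-binding protein of the pathway that ends short noncoding transcripts, rose by 0.70 (edgeR adjusted p = 0.0441), while YTH1, a zinc finger subunit of the cleavage factor, had -0.64 and did not pass (edgeR adjusted p = 0.0755). Of 24 RNA-binding proteins of 3′UTRs, 2 rose and 0 fell (8.33%, also near that background; median 0.28). PUF3, which binds 3′UTRs of mitochondrial protein mRNAs, had 300.5 CPM in modHTH and 313 CPM in modHNH, against 171 and 192 CPM in modNTN and 85.9 and 212 CPM in modNNN (0.88, SE 0.23, edgeR adjusted p = 0.0306), and SRO9, an RNA-binding protein that promotes translation, rose by 0.83. The 25 tested Puf3 target transcripts had 0 higher, 2 lower (8.0%) and a median of 0.08, and the lower pair, MRPS5 and MRPS16, are also in the mitochondrial ribosome list.

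The lists of the translation machinery held shares of called genes near the 6.93% of all genes. Of 138 cytosolic ribosomal protein genes, 3 rose and 5 fell (5.80%; median -0.07, beside -0.03 for all genes), among them RPL15A (0.70), RPL7B (-0.69) and RPL18B (-0.66). Each has a near-identical copy, between which short reads could be divided. Of 65 mitochondrial ribosomal protein genes, 0 rose and 3 fell (4.62%; median -0.17): MRPS16 had 127 CPM in modHTH and 128 CPM in modHNH, against 151 to 397 CPM (-0.97, edgeR adjusted p = 0.0426), MRPS5 fell by 0.71 and MRPL37 by 0.54. Of 38 ribosome biogenesis genes, 2 rose and 1 fell (7.89%; median 0.29): BMS1, a GTPase of small subunit assembly (0.78), and HAS1, a helicase of ribosome assembly (0.64), against YTM1, of large subunit assembly (-0.76). In this list modNGG had a higher median than either library with H, 0.44, against 0.30 in modHTH and 0.29 in modHNH relative to the 4 libraries without H.

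Of 28 general stress genes 3 passed (10.7%, beside 6.93% of all genes; median -0.19): HXK1, a hexokinase, rose (0.95, edgeR adjusted p = 0.0216) and GLK1 and PGM2, of glucose phosphate metabolism, fell. Relative to the 4 libraries without H, this list's median was lower in modNGG (-0.27) than in modHTH (-0.15) or modHNH (-0.08). Of 20 chaperones, SSA3 fell by 0.76 and 0 rose (5.0%; median 0.06). None of 17 genes of glycolysis and fermentation passed in the edgeR test (median 0.25). Of 32 genes of the respiratory chain and ATP synthase, ATP1, ATP3 and ATP17 of the ATP synthase rose (0.69, 0.66 and 0.46) and SDH4, of succinate dehydrogenase, and QCR9, of the cytochrome bc1 complex, fell (by 0.94 and 0.64), 15.6% of the list in 2 directions, with a median of -0.04. Of 10 histone genes HHT2 fell by 0.62 and 0 rose (median -0.22), and of the 13 genes of pyrimidine synthesis and uracil uptake and the 18 of sulfate assimilation, 0 passed (medians 0.01 and 0.07). STE6, which exports the a mating pheromone, was the 1 of 7 genes of mating type a that rose (0.57, edgeR adjusted p = 0.0453), and 0 fell (14.3% of the list).

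**Figure D5:**
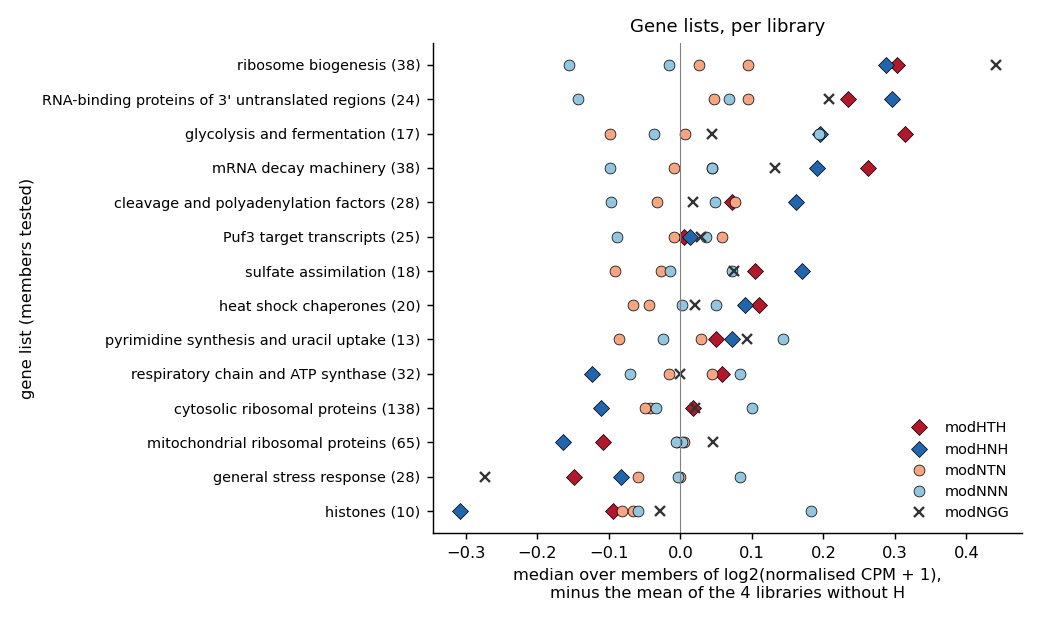
Median over each list's tested members (number in brackets) of log2(normalised CPM + 1) minus the mean of the 4 libraries without H, 1 point per library. Both diamonds (modHTH and modHNH) lie to the right of the circles (modNTN and modNNN) in 6 lists (ribosome biogenesis, RNA-binding proteins of 3′UTRs, mRNA decay, sulfate assimilation, chaperones and, barely, glycolysis) and to the left in 3 (mitochondrial ribosomal proteins, general stress and histones). The cross of modNGG is also to the right in the first 4 and also to the left in general stress. It is among the circles in histones and to their right in mitochondrial ribosomal proteins.

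Split by the middle insert, no host gene passed. modHTH against modNTN gave 0 of 5268 genes (0%; edgeR, with 657 at an unadjusted p under 0.05, and 3 with DESeq2), and modHNH against modNNN gave 0 (0%; 833 unadjusted, and 1 with DESeq2). No gene passed for a difference in the effect of H between the middle inserts (0%; edgeR, 85 unadjusted; DESeq2, 0, with 27 unadjusted). DHH1 had log2 differences of 1.60 in modHTH against modNTN and 1.44 in modHNH against modNNN, and FRE2 of -2.88 and -1.69, each from 1 library with H. MPA43 was more uneven, with -2.62 in modHTH against modNTN and -0.64 in modHNH against modNNN.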

How the data were processed

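Polyadenylated RNA with a 5′ phosphate was sequenced (HT-5PSeq, oligo(dT) primed), per the labels' protocols. The authors deposited whole-number read counts per transcript and counts of 3′ and 5′P ends per position around the stop codon, not normalized. The submitters' processing notes name HISAT2, SAMtools, featureCounts, bedtools, cutadapt, FastQC and MultiQC, and sacCer3 (R64). No source used here gives their versions or says whether reads of one molecule were collapsed. Wilson and exact intervals cover counting error only. The intervals of the reporter's log2 differences are 95% intervals from the SE of the edgeR fit, by a normal approximation. Of 5696 host rows, 5550 matched a symbol in the RefSeq table (R64), which also gave coordinates.

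Libraries under 1000 reads were left out, which kept 13 of 16. Counts were tested with edgeR 4.0.16 in R 4.3.3 (TMM over host genes, filterByExpr, glmQLFit and glmQLFTest, terms for flank and middle insert) at a Benjamini-Hochberg adjusted p under 0.05. Plasmid rows were kept in a second fit. Pairs were tested in a fit with 1 term per construct on all usable libraries, which assumes that a lone library has the spread of the rest. DESeq2 1.42.0 was the alternative tool. Shares and mean positions of ends were computed in Python 3.11.15 (numpy 2.4.6, scipy 1.17.1) within 200 nt of the stop codon, with two-sided exact permutation tests over the 15 splits, adjusted over the leading sites of a transcript. The fits and position code were tested on simulated data.

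Named genes were the 12 per direction with the largest change among those past the test and outside the range of the 4 libraries without H, and the 3 with the smallest p in each list. Other list members named had passed the test. The constructs compared and the gene lists were chosen with earlier results of these data known.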

Additional observations from a re-analysis of the deposited data

Results flagged for a closer look

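At 2 leading positions of the reporter's 3′ ends, the library with H lay on opposite sides of its pair's 2 libraries without H with the 2 middle inserts; the difference between the pairs was not tested. At 55 nt after the stop codon, the share of ends was -0.132 percentage points in modHTH minus modNTN and 10.1 points in modHNH minus modNNN. The first value rests on 14 ends in modHTH, whose Wilson interval (0.380% to 1.07%) holds both modNTN shares, so it shows no direction. At 76 nt it was 3.20 points in modHTH minus modNTN and -1.47 points in modHNH minus modNNN. Each pair has 1 library with H, so these differences cannot be told apart from differences between libraries.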

How the results depend on the processing

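The count of 357 host genes became 214 with DESeq2 (141 higher and 73 lower; 2597 genes had no adjusted p), 133 after removing the trend on coding length, 1039 with a replicate block, 0 with modNAA and modNGG added to the libraries without H, 0 with only modNGG added and 311 with only modNAA added (the last 2 chosen after seeing the data; 842 genes had an unadjusted p under 0.05 with modNGG added). Leaving out 1 library each gave 0 to 1264. Among the 6 libraries only modNNN and modNTN hold both replicate 1 and replicate 2 (the libraries with H are replicate 1), and their deviations correlated at r = 0.13 over genes (-0.33 to 0.33 over the 10 pairs of constructs with both libraries), so the pairing rests on a number alone; the reporter difference with the block was -0.998. modHNH against modNNN gave 1 gene with DESeq2, and modHTH against modNTN gave 3 with DESeq2 and 1 with the 6 libraries only. The reporter difference no longer passed with DESeq2 (-1.04) or with all modified terminators (-0.72), and ranged from -1.98 to -0.27 when 1 library was left out; the test of its dependence on the middle insert passed with DESeq2 (-1.72). The per-URA3 ratio ranged from -1.83 to -0.61 and the mean 3′ end position from -7.72 to -1.58 nt when 1 library was left out. The share at 76 nt (0.866 points) turned to -5.03 with neighbours within 2 nt added and -2.26 with all modified terminators, and the plasmid URA3 mean position (4.21 nt) then passed (exact permutation p = 0.0278). When 1 library was left out, HTB1 ranged from -0.77 to 0.059 and IME2 from -1.38 to 0.075 (positive without modHNH), and HIS3 from -0.37 to 0.034 (positive without modHTH); none of the 3 had passed. None of the 24 genes of largest change reversed in any alternative run, and 0 of the 24 passed with all modified terminators. Except where the alternative itself removes libraries or genes, the cause was not tested. The planned list of host genes with the H motif after the stop codon was not run, because no genome sequence was used here. With 2194 reporter ends in modHTH, a share near 0.1% rests on few ends.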
